A study of Homo sapiens with 12 samples.

Results

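In the acute myeloid leukaemia cell line KG-1, 7 genes stood near the top of the falls after 96 h with ASLAN003: CKMT1A, CKMT1B, SFRP5, GAS6, PPP1R1B, CGREF1 and BZRAP1. Their mean level was 5.5 to 14.6 times lower with the drug than with the solvent DMSO. In MOLM-14, the other leukaemia line of the study, 4 of the 7 (CKMT1A, CKMT1B, SFRP5 and PPP1R1B) were at or next to 0 in every library. The test there says little about them. GAS6, CGREF1 and BZRAP1 were transcribed in both lines. None of these passed the test in MOLM-14, where 13% of all tested genes did. Without MOLM-14 ASLAN003 replicate 1, BZRAP1 was called lower and CGREF1 higher.

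The 7 genes were taken by name, as genes already known from these data to be strongly lower in KG-1 with ASLAN003. They are 7 of the 13881 genes listed and of the 13353 tested. They were thus chosen by the KG-1 difference between treated and solvent libraries, and their KG-1 values are given as a description without a test. The choice had no numerical limit. Ranked by the size of the KG-1 fall, the members held places 5, 6, 10, 11, 14, 15 and 17, with CGREF1 last at a log2 change of -2.34, and the next gene in rank, GAL, stood just outside at -2.28. The rule uses no MOLM-14 value, and these were tested, but the genes were picked with earlier results in view, and whether genes lower in both lines were set aside is not known.

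The study sequenced RNA of KG-1 cells and of MOLM-14 cells, both established lines of human acute myeloid leukaemia, which grew in RPMI medium with serum and received either DMSO or ASLAN003 for 96 h. Each of the 4 groups (KG-1 with DMSO, KG-1 with ASLAN003, MOLM-14 with DMSO, MOLM-14 with ASLAN003) had 3 libraries. ASLAN003 inhibits dihydroorotate dehydrogenase, a mitochondrial enzyme through which cells build pyrimidines anew. No dose is given in the sources used here. Levels are in FPKM, fragment numbers scaled by transcript length and library size, and a log2 change is the mean log2(FPKM + 1) with ASLAN003 minus that with DMSO, which understates the change of low genes. Each line stands for itself as a model, and the labels say that treatments were triplicated but not that the libraries came from separate cultures, so the spread between them may be technical.

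The genes encode proteins of different kinds. CKMT1A and CKMT1B are neighbouring copies of the gene for ubiquitous mitochondrial creatine kinase, which sits between the mitochondrial membranes and passes phosphate from ATP to creatine. SFRP5 and GAS6 encode secreted proteins: the first binds Wnt ligands and keeps them from their Frizzled receptors, and the second bridges phosphatidylserine on cells to the receptor tyrosine kinases TYRO3, AXL and MERTK. PPP1R1B encodes DARPP-32, an inhibitor of protein phosphatase 1 once protein kinase A has phosphorylated it, known best from striatal neurons. BZRAP1, named TSPOAP1 in newer annotations, encodes a large adaptor that binds the mitochondrial protein TSPO and proteins of the presynaptic active zone. CGREF1 encodes a secreted protein with EF-hand calcium-binding motifs.

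The libraries showed a myeloid profile: all 6 myeloid markers looked for (PTPRC, SPI1, CD33, MPO, CEBPA and CSF1R) were listed in both lines, with summed levels of 529.62 to 576.41 FPKM in KG-1 with DMSO, 594.81 to 649.99 in KG-1 with ASLAN003, 489.95 to 571.42 in MOLM-14 with DMSO and 598.43 to 733.46 in MOLM-14 with ASLAN003. CD34, a stem cell antigen that KG-1 cells are commonly described as carrying, was at most 0.17 FPKM in any library. Of the same progenitor list, KIT reached 4.07 FPKM and FLT3 was well measured. FLT3 was at 17.47 to 19.83 FPKM in KG-1 with DMSO and 33.54 to 35.83 with ASLAN003. In MOLM-14 it was at 96.30 to 107.55 FPKM with DMSO and 113.61 to 118.40 with ASLAN003. The erythroid list had no listed gene, and CD3D of the T cell list was at most 0.22 FPKM. CD79A of the B cell list was at 0.84 to 1.98 FPKM in KG-1 with DMSO, 5.57 to 7.71 in KG-1 with ASLAN003 and at most 0.45 in MOLM-14. COL1A1 of the fibroblast list reached 10.72 FPKM, TUBB3 of the neuronal list 3.25 and EPCAM of the epithelial list 2.49, each the only gene of its list that was listed. The part of these genes' cell types in the values below was not tested. The median SD between replicates, on the log2 scale, was 0.129 in KG-1 with DMSO, 0.155 in KG-1 with ASLAN003, 0.177 in MOLM-14 with DMSO and 0.271 in MOLM-14 with ASLAN003. In the last group, the median absolute difference over genes was 0.349 and 0.333 between replicate 1 and the others and 0.247 between these, so replicate 1 stood apart. In bulk RNA, fewer cells that hold a transcript and less of it per cell cannot be told apart.

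**Figure D1:**
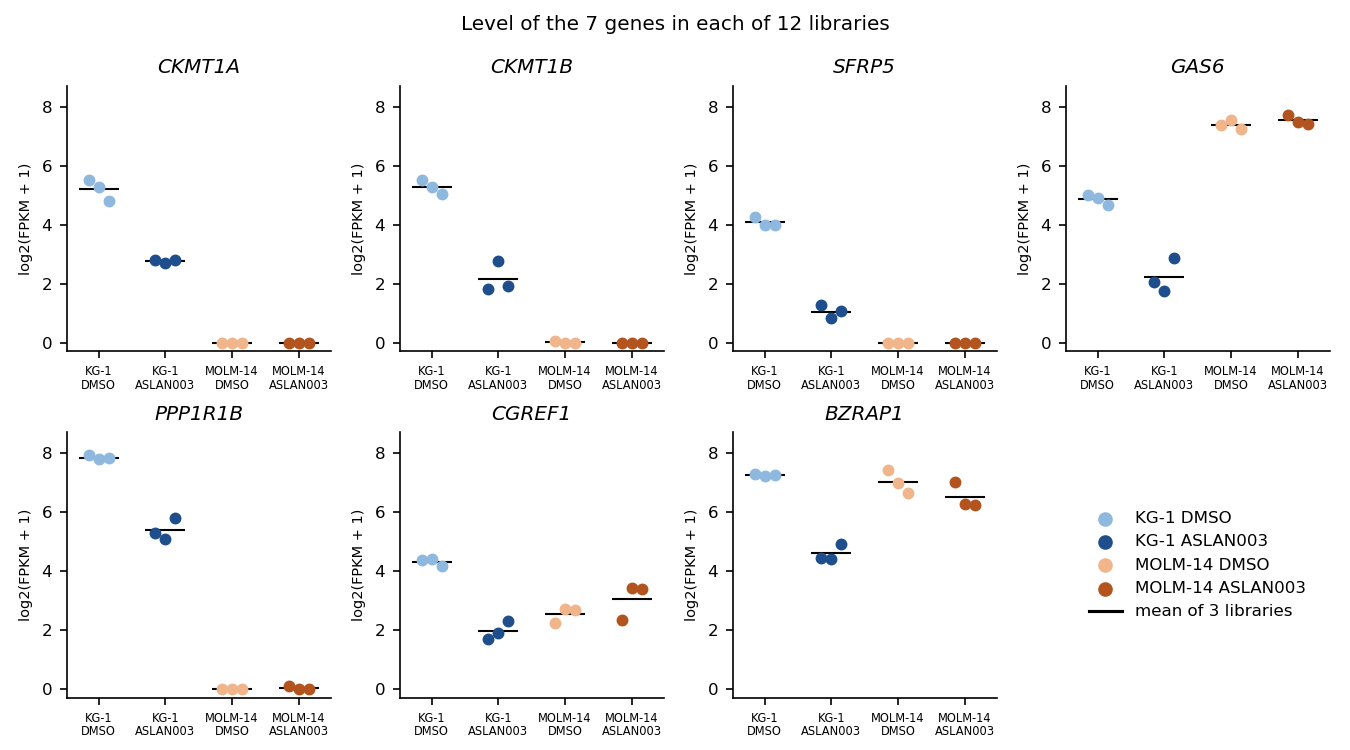
Level of each of the 7 genes, log2(FPKM + 1), in the 12 libraries, with points for single libraries and lines for the mean of 3 libraries of a group. In KG-1 every ASLAN003 library lies below every DMSO library for all 7 genes, while in MOLM-14 4 genes lie at or next to 0 and GAS6, CGREF1 and BZRAP1 have overlapping groups.

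In KG-1, treated and solvent libraries did not overlap for any of the 7 genes. All ASLAN003 libraries lay below all DMSO libraries for 24.5% of the 13353 tested genes, and limma called 33.7% in this line at an adjusted p under 0.05 (14.3% lower, 19.4% higher). Since the KG-1 values chose the members, nothing is read from their count. Their log2 changes ran from -3.11 to -2.34 with a median of -2.64, beside a median of 0.05 over all tested genes. Leaving out any 1 library kept this median between -2.82 and -2.40.

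In MOLM-14, 0 of the 7 genes were called by limma after Benjamini-Hochberg adjustment, against 13% of all tested genes in either direction, 3.33% lower and 9.69% higher. Only BZRAP1 had an unadjusted p under 0.05, as had 28% of all genes. Treated and solvent libraries overlapped or tied for all 7 genes, while 8.17% of genes had all treated libraries below and 17.7% above the solvent libraries. This count says little about CKMT1A, CKMT1B, SFRP5 and PPP1R1B, which entered the test through KG-1 alone and reached at most 0.08 FPKM in a MOLM-14 library. Without MOLM-14 ASLAN003 replicate 1, the library that stood apart, 1 member was called lower (BZRAP1) and 1 higher (CGREF1).

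**Figure D2:**
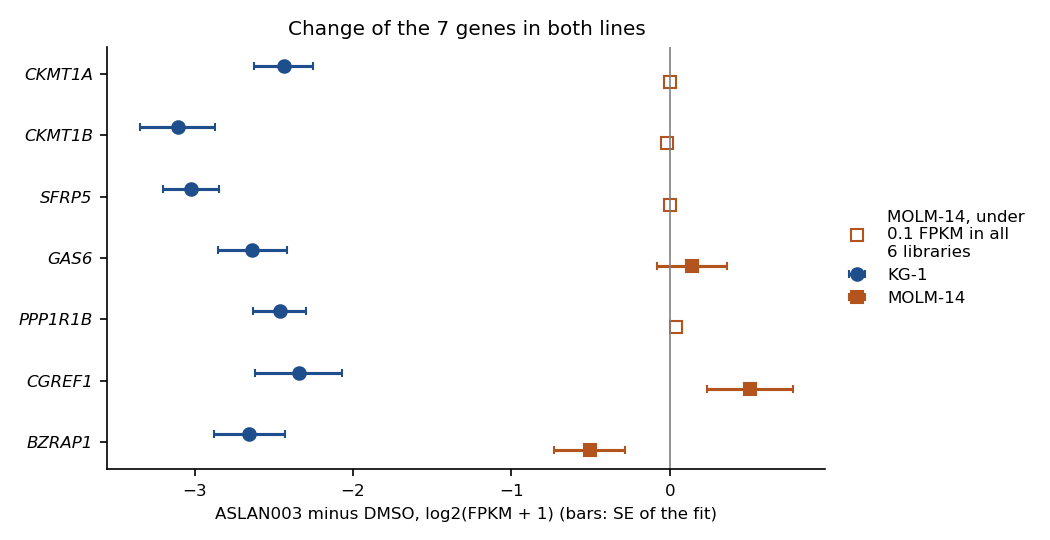
Log2 change of each gene with ASLAN003 in KG-1 (circles) and MOLM-14 (squares), on the log2(FPKM + 1) scale, with bars for the SE of the fit. The KG-1 values run from -3.11 to -2.34 and chose the genes. Open squares mark genes under 0.1 FPKM in all 6 MOLM-14 libraries, for which no error is drawn.

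The genes for mitochondrial creatine kinase were lower in every treated KG-1 library. The copies lie in tandem on chromosome 15 (GRCh38, GENCODE 29), CKMT1B at chr15:43593054-43604901 and CKMT1A at chr15:43692886-43699222, both on the plus strand. Their coding sequences of 1254 bases are 99.84% identical and differ at 2 positions, counted from the A of the start codon: G1056A and C1086T, with the CKMT1A base first and the CKMT1B base last. Both are at the third codon position, in CKMT1A exon 8 and CKMT1B exon 9. A stretch of 91 coding bases, positions 1026 to 1116, holds both differences, here in capitals, and shows how little separates the copies (GENCODE 29 transcripts on GRCh38, chr15:43698655-43698745 for CKMT1A and chr15:43598841-43598931 for CKMT1B).
CKMT1A: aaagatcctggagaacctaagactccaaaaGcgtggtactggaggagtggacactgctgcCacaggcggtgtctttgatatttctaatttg
CKMT1B: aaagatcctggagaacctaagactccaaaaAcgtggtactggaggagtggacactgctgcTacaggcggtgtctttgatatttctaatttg
Of the 1155 windows of 100 bases (1 read length) along the coding sequence, 1025 (88.7%) are the same in both copies. The division of fragments between CKMT1A and CKMT1B is therefore uncertain, and their sum is given beside each. Read pairs and transcript bases outside the coding sequence, which may separate the copies further, were not compared.

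In KG-1 with DMSO, CKMT1A was at 44.98, 37.91 and 27.02 FPKM in replicates 1, 2 and 3, and with ASLAN003 it was at 5.94, 5.47 and 6.01 FPKM. CKMT1B was at 44.88, 37.98 and 31.54 FPKM with DMSO and at 2.54, 5.77 and 2.79 FPKM with ASLAN003. The solvent libraries spread over a wider range than the treated ones, and the groups lie far apart for each copy. Summed over both copies, the level went from 74.8 ± 15.7 to 9.51 ± 1.51 FPKM (SD, n = 3), a ratio of 7.87 and a log2 change of -2.84 ± 0.18 (SE). The single copies had log2 changes of -2.44 ± 0.19 (CKMT1A) and -3.11 ± 0.24 (CKMT1B).

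The share of CKMT1A in the sum was 50.1%, 50% and 46.1% in the DMSO libraries and 70%, 48.7% and 68.3% in the ASLAN003 libraries. ASLAN003 replicate 2 thus kept the near-equal division of the solvent libraries and the other two did not. Without it, the log2 change of CKMT1B was -3.40. In MOLM-14, CKMT1A was listed at 0 in all 6 libraries and CKMT1B at 0 in 5, with 0.03 FPKM in DMSO replicate 1.

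**Figure D3:**
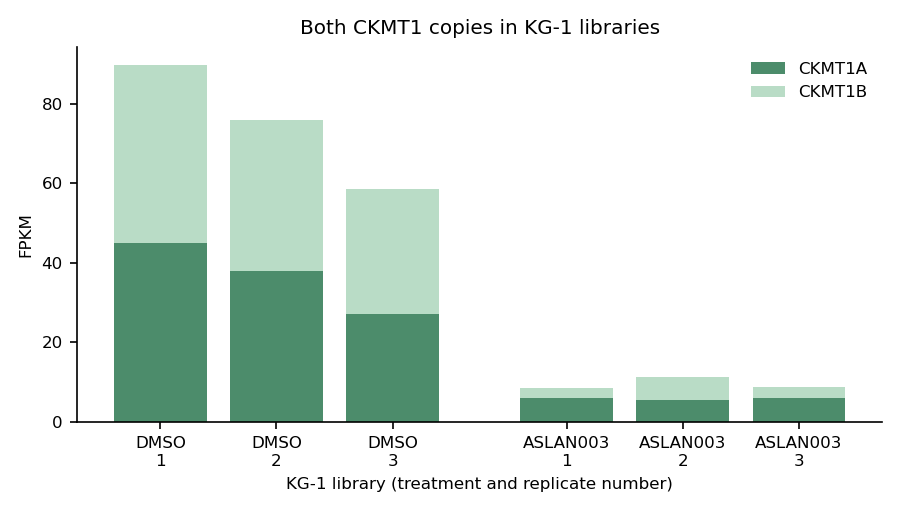
FPKM of CKMT1A (dark) and CKMT1B (light), stacked, in each KG-1 library. The sum is between 58.56 and 89.86 FPKM in the 3 DMSO libraries and between 8.48 and 11.24 FPKM in the 3 ASLAN003 libraries, and CKMT1A takes 48.7% of it in ASLAN003 replicate 2 and 70% and 68.3% in the other treated libraries.

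The start regions of the copies are duplicated as well. RefSeq (GRCh38.p14) gives windows of 250 bases before to 50 after a start site for 5 of the 7 genes. The longest run shared by a CKMT1A window (chr15:43693441-43693740, plus strand) and a CKMT1B window (chr15:43593584-43593883, plus strand) is 275 bases. They are printed to show how alike the start regions are, with the palindromic E-box CACGTG in capitals. Whether this sequence has a part in the fall was not tested.
CKMT1A: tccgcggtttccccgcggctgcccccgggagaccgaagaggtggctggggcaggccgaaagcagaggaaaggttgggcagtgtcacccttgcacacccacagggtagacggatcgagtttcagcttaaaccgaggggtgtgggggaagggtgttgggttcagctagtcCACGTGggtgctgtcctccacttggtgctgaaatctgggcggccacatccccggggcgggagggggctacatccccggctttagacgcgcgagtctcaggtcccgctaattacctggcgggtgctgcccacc
CKMT1B: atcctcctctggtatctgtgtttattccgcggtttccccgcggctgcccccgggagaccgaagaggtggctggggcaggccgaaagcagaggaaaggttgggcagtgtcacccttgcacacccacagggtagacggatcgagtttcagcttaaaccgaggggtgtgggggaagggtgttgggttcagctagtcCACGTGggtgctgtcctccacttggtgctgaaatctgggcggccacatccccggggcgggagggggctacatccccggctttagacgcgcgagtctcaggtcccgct
Both windows hold 1 CACGTG, a motif found in 7.3% of all 35116 windows of the same length. Each also holds 2 copies of the GC box GGGCGG, which on either strand was found in 45.0% of all windows. CKMT1A has 5 windows in the table and CKMT1B 2, and the matches are a description of letters only.

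Among genes of creatine supply and of the mitochondrial membranes where this kinase works, 11 of 12 listed by function were tested. In KG-1, 7 were called lower, 1 higher and 3 neither, with a median log2 change of -0.47, where 14.3% of all tested genes were called lower and 19.4% higher. SLC6A8, the creatine transporter of the plasma membrane, fell from 23.5 ± 7.68 to 4.88 ± 1.69 FPKM (SD, n = 3), a log2 change of -2.05 ± 0.38 (SE; limma adjusted p = 0.0011). GATM, the first enzyme of creatine synthesis, fell from 25.3 ± 1.56 to 10.1 ± 1.16 FPKM (-1.25 ± 0.26, adjusted p = 0.00269).

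SLC25A6, an ADP/ATP carrier of the inner membrane, fell from 221.3 ± 11.6 to 121.6 ± 11.5 FPKM (-0.86 ± 0.10, adjusted p = 4.18e-05). CKB, the brain-type cytosolic creatine kinase, fell from 26.5 ± 6.85 to 16.5 ± 2.82 FPKM (-0.64 ± 0.22, adjusted p = 0.045). Its call was lost without any 1 KG-1 library other than DMSO replicate 3 and without MOLM-14 DMSO replicate 1 or ASLAN003 replicate 3, with adjusted p up to 0.195. CKM, the muscle-type kinase, went the other way, from 4.21 ± 0.452 to 10.8 ± 0.80 FPKM (1.18 ± 0.20, adjusted p = 0.000557).

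In MOLM-14, 1 gene of this list was called, where 13% of all tested genes were. It was SLC25A6, which fell by 0.56 on the log2 scale (adjusted p = 0.00423). Without MOLM-14 DMSO replicate 1 the list had 2 lower calls, and without ASLAN003 replicate 3 it had 3. The list had 1 higher call, in place of 0, without KG-1 DMSO replicate 3, MOLM-14 DMSO replicate 2, MOLM-14 ASLAN003 replicate 1 or MOLM-14 ASLAN003 replicate 3. SLC6A8 was at 3.59 FPKM with DMSO and 3.95 with ASLAN003 there, and the difference between its changes in the lines was -2.01 (KG-1 minus MOLM-14, adjusted p = 0.0323), a difference called for 9.94% of all genes. For GATM this difference was not called (-0.48, adjusted p = 0.461). In MOLM-14, GATM was at 2.82 FPKM with DMSO and 1.24 with ASLAN003 (-0.76 ± 0.26, adjusted p = 0.0738). It was called lower there without MOLM-14 DMSO replicate 1 (adjusted p = 0.0198) or ASLAN003 replicate 3 (0.0311). The same held with medians centred (0.0448) and with a replicate block (0.0256).

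SFRP5 (chr10:97766751-97771952, minus strand) was at 18.07, 14.70 and 14.94 FPKM in the KG-1 DMSO libraries and at 1.39, 0.79 and 1.08 FPKM in the ASLAN003 libraries. The mean ratio of 14.6 was the largest of the 7 genes, and the log2 change was -3.02 ± 0.18 (SE). Because the treated level is near the pseudocount, this change depends on it: with a pseudocount of 0.1 in place of 1 it was -3.78. The gene was listed at 0 in all 6 MOLM-14 libraries. Its RefSeq window (chr10:97771950-97772249) holds 28 CpG dinucleotides, more than 73.8% of windows, and 2 GGGCGG.

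The other Wnt pathway genes did not share one direction. Of 10 further antagonists 2 were tested, of 14 receptor and secretion genes 7, of 19 ligands 6 and of 8 target genes 1. In KG-1, 3 of these 16 genes were called lower and 1 higher, where 14.3% of all tested genes were called lower and 19.4% higher. With so few genes, nothing is read from these shares. WNT8A, a Wnt ligand, rose from 1.69 ± 0.225 to 24.2 ± 0.607 FPKM (3.23 ± 0.16, adjusted p = 8.83e-08) and was listed at 0 in all MOLM-14 libraries. NOTUM, a secreted enzyme that removes the lipid of Wnt proteins, fell from 3.89 ± 0.416 to 2.27 ± 0.21 FPKM (-0.58 ± 0.19, adjusted p = 0.0299), a call lost without any 1 KG-1 library (adjusted p up to 0.109).

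LRP5, a Wnt co-receptor, fell from 24.3 ± 2.32 to 16.6 ± 2.39 FPKM in KG-1 (-0.53 ± 0.16, adjusted p = 0.0229). That call was lost without KG-1 DMSO replicate 1, DMSO replicate 2 or ASLAN003 replicate 2, with adjusted p up to 0.101. WNT7B was under 1 FPKM on average in both KG-1 groups and fell there by 0.63 on the log2 scale (adjusted p = 0.0199), a call lost without DMSO replicate 1 or 3 or ASLAN003 replicate 1 or 2 (up to 0.0796). In MOLM-14 it fell from 35.3 to 18.3 FPKM (-0.92 ± 0.19, adjusted p = 0.0072), the only call of the Wnt lists there with all libraries. SFRP1, another antagonist of this family, did not pass the filter on low values, with at most 0.09 FPKM.

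GAS6 (chr13:113820549-113864067, minus strand) was transcribed in both lines. In KG-1 it was at 31.10, 28.94 and 24.61 FPKM with DMSO and at 3.18, 2.39 and 6.23 FPKM with ASLAN003, a mean ratio of 7.17 and a log2 change of -2.64 ± 0.22 (SE). In MOLM-14 it was at 164.87, 186.16 and 151.80 FPKM with DMSO and at 208.35, 177.17 and 169.43 FPKM with ASLAN003. The MOLM-14 groups overlap, and even the lowest MOLM-14 library was above every KG-1 library.

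The MOLM-14 log2 change of GAS6 was 0.14 ± 0.22 (SE), with a 95% confidence interval of -0.33 to 0.62 and an adjusted p of 0.732. With DMSO, the mean level was 5.94 times higher in MOLM-14 than in KG-1. Without KG-1 ASLAN003 replicate 3, the highest treated library, the KG-1 log2 change was -2.95. The RefSeq window of GAS6 (chr13:113864027-113864326) holds 42 CpG dinucleotides, more than 94.2% of windows and the most among the 5 genes with a window, and 3 GGGCGG.

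Of the genes around GAS6 (its relative PROS1, the receptors and the vitamin K cycle that serves the carboxylation of both ligands), 6 of 7 were tested. In KG-1, 1 was called lower and 2 higher, where 14.3% of all tested genes were called lower and 19.4% higher. In MOLM-14 none was called, where 13% of all tested genes were. With so few genes, nothing is read from these shares. VKORC1, the enzyme that regenerates reduced vitamin K, fell in KG-1 from 68.7 ± 6.34 to 36.6 ± 9.23 FPKM (-0.91 ± 0.15, adjusted p = 0.000524). It was at 54.9 and 55.4 FPKM in MOLM-14 with DMSO and ASLAN003, and the changes differed between the lines by -0.93 (adjusted p = 0.0168). Without MOLM-14 ASLAN003 replicate 1, the list had 2 lower calls in KG-1.

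MERTK, a receptor for GAS6, rose in KG-1 from 0.777 ± 0.14 to 2.08 ± 0.37 FPKM (0.79 ± 0.18, adjusted p = 0.00518). It passed the filter on low values through the 3 treated KG-1 libraries alone, so it was not tested without any of them. The filter thus favoured a rise of MERTK, and its adjusted p is not read as evidence of one. PROS1 rose from 6.92 ± 1.60 to 9.90 ± 0.777 FPKM (0.48 ± 0.17, adjusted p = 0.0461), a call lost without any 1 KG-1 library other than DMSO replicate 3 and without MOLM-14 DMSO replicate 1 or 2 (adjusted p up to 0.194). TYRO3 was at 1.21 and 1.05 FPKM in KG-1 with DMSO and ASLAN003 (adjusted p = 0.733) and at 5.51 and 2.94 FPKM in MOLM-14 (adjusted p = 0.0876).

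PPP1R1B (chr17:39626740-39636626, plus strand) was the most abundant of the 7 genes in KG-1 by FPKM, above 96.9% of tested genes with DMSO. It was at 241.80, 222.98 and 225.18 FPKM with DMSO and at 37.90, 32.72 and 54.77 FPKM with ASLAN003. The treated libraries stayed above 30 FPKM, and the mean ratio of 5.5 was the smallest of the 7 (log2 change -2.46 ± 0.17, SE). In MOLM-14 it was listed at 0 in 5 libraries and at 0.08 FPKM in ASLAN003 replicate 1.

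Of 21 partners of DARPP-32 (protein phosphatase 1, protein kinase A, CDK5, calcineurin and dopamine or adenosine receptors), 17 were tested. In KG-1, 7 were called higher, 1 lower and 9 neither, where 19.4% of all tested genes were called higher and 14.3% lower. PPP3CA, a catalytic subunit of calcineurin, which dephosphorylates DARPP-32, rose from 16.6 ± 1.09 to 32.8 ± 0.932 FPKM (0.94 ± 0.19, adjusted p = 0.00245). PPP1CA, a catalytic subunit of protein phosphatase 1, rose from 117.2 ± 0.881 to 164.4 ± 3.57 FPKM (0.49 ± 0.09, adjusted p = 0.00155). PPP1CC, another of its catalytic subunits, was the 1 partner called lower, from 172.6 ± 6.59 to 131.1 ± 12.6 FPKM (-0.40 ± 0.10, adjusted p = 0.00639). PPP1CB, also such a subunit, was not called (0.03 ± 0.14, adjusted p = 0.891).

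PPP1R2, another inhibitor of protein phosphatase 1, rose from 16.3 ± 2.46 to 24.6 ± 3.36 FPKM (0.57 ± 0.14, adjusted p = 0.0085). CDK5R1, an activator of CDK5, was at 0.743 FPKM with DMSO and 1.76 with ASLAN003 (0.65 ± 0.20, adjusted p = 0.0229), and lost its call without DMSO replicate 2 or 3 or ASLAN003 replicate 1 or 3 (adjusted p up to 0.093). PRKAR1A, a regulatory subunit of protein kinase A, rose in both lines, by 0.55 in KG-1 (adjusted p = 0.00232) and 0.51 in MOLM-14 (adjusted p = 0.0114). The MOLM-14 call was lost without MOLM-14 DMSO replicate 2 (adjusted p = 0.0506) and with library medians centred (0.36, adjusted p = 0.0585). It was also lost with each line fitted by itself (adjusted p = 0.0547) and with libraries weighted by spread (adjusted p = 0.0631).

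In MOLM-14, 3 of the 17 partners were called higher and none lower, where 9.69% and 3.33% of all genes were. PRKAR2B, another regulatory subunit, rose there from 8.02 to 24.0 FPKM (1.44 ± 0.19, adjusted p = 0.000761) and was at 1.48 and 1.10 FPKM in KG-1 with DMSO and ASLAN003. The third, PRKAR2A, rose by 0.59 (adjusted p = 0.0372). That call was lost without any 1 of 9 libraries, namely KG-1 DMSO replicates 1, 2 and 3, KG-1 ASLAN003 replicates 1 and 2, MOLM-14 DMSO replicates 1 and 3, and MOLM-14 ASLAN003 replicates 1 and 2, with adjusted p over all alternatives up to 0.233.

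BZRAP1 (chr17:58301228-58328760, minus strand) was abundant in both lines. In KG-1 it was at 154.49, 149.39 and 151.00 FPKM with DMSO and at 20.80, 20.49 and 29.32 FPKM with ASLAN003, a mean ratio of 6.44 and a log2 change of -2.66 ± 0.22 (SE). The solvent libraries lay within a few FPKM of each other. In MOLM-14 it was at 172.56, 125.34 and 98.43 FPKM with DMSO and at 127.66, 77.10 and 75.04 FPKM with ASLAN003.

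The MOLM-14 groups of BZRAP1 overlap through treated replicate 1, which at 127.66 FPKM is above the second highest solvent library. The MOLM-14 log2 change was -0.50 ± 0.22 (SE), with a 95% confidence interval of -0.99 to -0.02 and an adjusted p of 0.163. Without MOLM-14 ASLAN003 replicate 1 it was -0.75 (adjusted p = 0.0328), and the gene was then called lower. With DMSO the mean levels of the lines were within a ratio of 1.15. BZRAP1-AS1, a transcript antisense to it, overlaps the gene, and the sources used here do not say whether counting used strand, so fragments of the pair may be mixed. It rose in KG-1 from 9.70 ± 0.526 to 13.6 ± 1.26 FPKM (0.44 ± 0.15, adjusted p = 0.041). That call was lost without any 1 KG-1 library other than ASLAN003 replicate 1, without MOLM-14 DMSO replicate 1 or 2, and with medians centred (adjusted p up to 0.144).

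Of 7 TSPO and presynaptic partners of BZRAP1, 4 were tested. ACBD3, a Golgi protein that binds TSPO, rose in KG-1 from 12.7 ± 0.702 to 20.6 ± 2.63 FPKM (0.65 ± 0.17, adjusted p = 0.00998). TSPO itself was lower, at 183.9 ± 12.4 and 140.7 ± 25.8 FPKM (-0.40 ± 0.14, adjusted p = 0.0493), and so was STAR, which carries cholesterol to mitochondria, at 20.1 ± 1.27 and 14.6 ± 2.75 FPKM (-0.45 ± 0.16, adjusted p = 0.0403). Both calls were lost without any 1 of KG-1 DMSO replicates 1, 2 and 3 and ASLAN003 replicates 1 and 2, and that of TSPO also without MOLM-14 DMSO replicate 1 or 2, with adjusted p up to 0.187 for TSPO and 0.168 for STAR. DBI, a small ligand of TSPO, rose in MOLM-14 by 0.42 (adjusted p = 0.00696) and was not called in KG-1 (adjusted p = 0.245). The MOLM-14 call was lost with library medians centred (0.27, adjusted p = 0.0689) and with each line fitted by itself (adjusted p = 0.0655).

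CGREF1 (chr2:27098889-27119115, minus strand) was the lowest of the 3 genes that both lines transcribe. In KG-1 it was at 19.99, 20.20 and 17.12 FPKM with DMSO and at 2.27, 2.76 and 4.01 FPKM with ASLAN003, a mean ratio of 6.34 and a log2 change of -2.34 ± 0.27 (SE). In MOLM-14 it was at 3.78, 5.61 and 5.36 FPKM with DMSO and at 4.08, 9.81 and 9.46 FPKM with ASLAN003. Treated replicates 2 and 3 were above every solvent library and replicate 1 was among them. KHK, on the plus strand, overlaps CGREF1, so fragments of this pair may be mixed, as for BZRAP1. With DMSO and ASLAN003, KHK was at 3.73 and 2.69 FPKM in KG-1 (limma adjusted p = 0.414). In MOLM-14 it was at 1.78 and 3.35 FPKM (adjusted p = 0.326).

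The MOLM-14 log2 change of CGREF1 was 0.51 ± 0.27 (SE), with a 95% confidence interval of -0.09 to 1.10 and an adjusted p of 0.253. Without MOLM-14 ASLAN003 replicate 1 it was 0.86 (adjusted p = 0.0205), and the gene was then called higher. With DMSO the mean level was 3.89 times higher in KG-1 than in MOLM-14, and with ASLAN003 the order was the other way, 3.01 ± 0.897 FPKM in KG-1 and 7.78 ± 3.21 in MOLM-14 (SD, n = 3). Its RefSeq window (chr2:27119079-27119378, minus strand, GRCh38.p14) is printed because it holds, as the CKMT1 windows do, 1 CACGTG (in capitals).
CGREF1: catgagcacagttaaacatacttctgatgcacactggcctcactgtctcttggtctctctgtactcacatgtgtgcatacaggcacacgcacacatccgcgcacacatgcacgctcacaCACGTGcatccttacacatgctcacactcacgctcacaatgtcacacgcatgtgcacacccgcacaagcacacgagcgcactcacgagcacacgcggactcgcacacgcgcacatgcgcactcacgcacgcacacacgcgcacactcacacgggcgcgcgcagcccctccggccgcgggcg
It has no GGGCGG. Over the 5 genes with a window, CACGTG was in a window of 3, of which CKMT1A and CKMT1B share their sequence. GGGCGG was in a window of 4, CCAAT of 2 (34.6% of all windows) and TATAAA of none (11.5% of all windows). A gene counts here if any of its windows holds the motif, while the shares are per single window. The CKMT1 copies have several windows, so the counts and shares are not alike. The CCAAT of CKMT1A is not in its printed window.

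The members did not fall by the same amount in each treated KG-1 library. For GAS6, PPP1R1B, CGREF1 and BZRAP1, ASLAN003 replicate 3 was the highest treated library, with log2 changes from the DMSO mean of -2.01, -2.05, -2.0 and -2.33. In replicate 1 the same genes were at -2.80, -2.57, -2.62 and -2.81, and in replicate 2 at -3.10, -2.78, -2.42 and -2.83. For SFRP5 the highest treated library was replicate 1, and for CKMT1A the 3 treated libraries lay between -2.51 and -2.40. For CKMT1B it was replicate 2, at -2.52, with the others at -3.45 and -3.35. Over all tested genes, replicate 3 also differed more from treated replicates 1 and 2 (median absolute log2 differences of 0.191 and 0.207) than these from each other (0.139), and its part in these values was not tested.

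In KG-1, some genes next to the members were called lower, fewer higher and most neither. Of the 37 distinct tested genes that are the 3 nearest on either side of a member, 9 were called lower and 4 higher in KG-1, beside 14.3% lower and 19.4% higher of all genes. In MOLM-14, 1 was called lower and none higher, beside 3.33% lower and 9.69% higher of all genes. Without KG-1 ASLAN003 replicate 2, the lower calls in KG-1 were 5.

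Both peroxidase genes beside BZRAP1 fell in KG-1. MPO, the myeloperoxidase of granulocyte precursors, lies 20.3 kb away and fell in KG-1 from 160.3 ± 16.9 to 37.9 ± 5.63 FPKM (-2.05 ± 0.16, adjusted p = 1.57e-06) and in MOLM-14 from 20.8 to 4.83 FPKM (-1.89 ± 0.16, adjusted p = 3.44e-05). LPO, lactoperoxidase, lies 32.7 kb away and fell in KG-1 from 24.3 ± 0.711 to 4.52 ± 0.696 FPKM (-2.20 ± 0.15, adjusted p = 7.75e-07). In MOLM-14, LPO was at 8.89 and 7.48 FPKM (-0.21 ± 0.15, adjusted p = 0.385), and the lines differed by -1.99 (adjusted p = 0.000202).

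STARD3, a cholesterol-binding protein of late endosomes, begins 439 bases past the end of PPP1R1B and went the opposite way. It rose in KG-1 from 22.1 ± 0.177 to 58.6 ± 6.75 FPKM (1.36 ± 0.16, adjusted p = 3.1e-05). In MOLM-14 it was at 35.2 and 41.4 FPKM (adjusted p = 0.348), and the lines differed by 1.12 (adjusted p = 0.00791). PREB, 11.6 kb from CGREF1, fell in KG-1 from 83.6 ± 14.3 to 39.8 ± 1.72 FPKM (-1.04 ± 0.15, adjusted p = 0.000149), and SLC5A6, a vitamin transporter 80.5 kb away, fell by 0.59 (adjusted p = 0.00157).

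Around SFRP5, MARVELD1 fell in KG-1 from 42.1 ± 4.69 to 26.5 ± 1.54 FPKM (-0.64 ± 0.11, adjusted p = 0.000634), while ZFYVE27, the nearest gene at 5.8 kb, was not called (-0.22, adjusted p = 0.382). AVPI1 fell by 0.69 (adjusted p = 0.0273), a call lost without KG-1 DMSO replicate 1 or 2 or ASLAN003 replicate 1 or 2 (up to 0.0969). Next to GAS6, TMEM255B at 3.6 kb was not called (adjusted p = 0.671), and TMCO3 rose by 0.72 (adjusted p = 0.00146). Next to the CKMT1 copies, PDIA3, a disulfide isomerase of the endoplasmic reticulum, rose by 0.45 (adjusted p = 0.00336). ELL3, with a mean of 1.46 FPKM with DMSO and 0.0933 with ASLAN003, fell by 1.17 (adjusted p = 0.0359), a call lost without any 1 KG-1 library (up to 0.101). With a pseudocount of 0.1 in place of 1, its log2 change was -3.15.

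**Figure D4:**
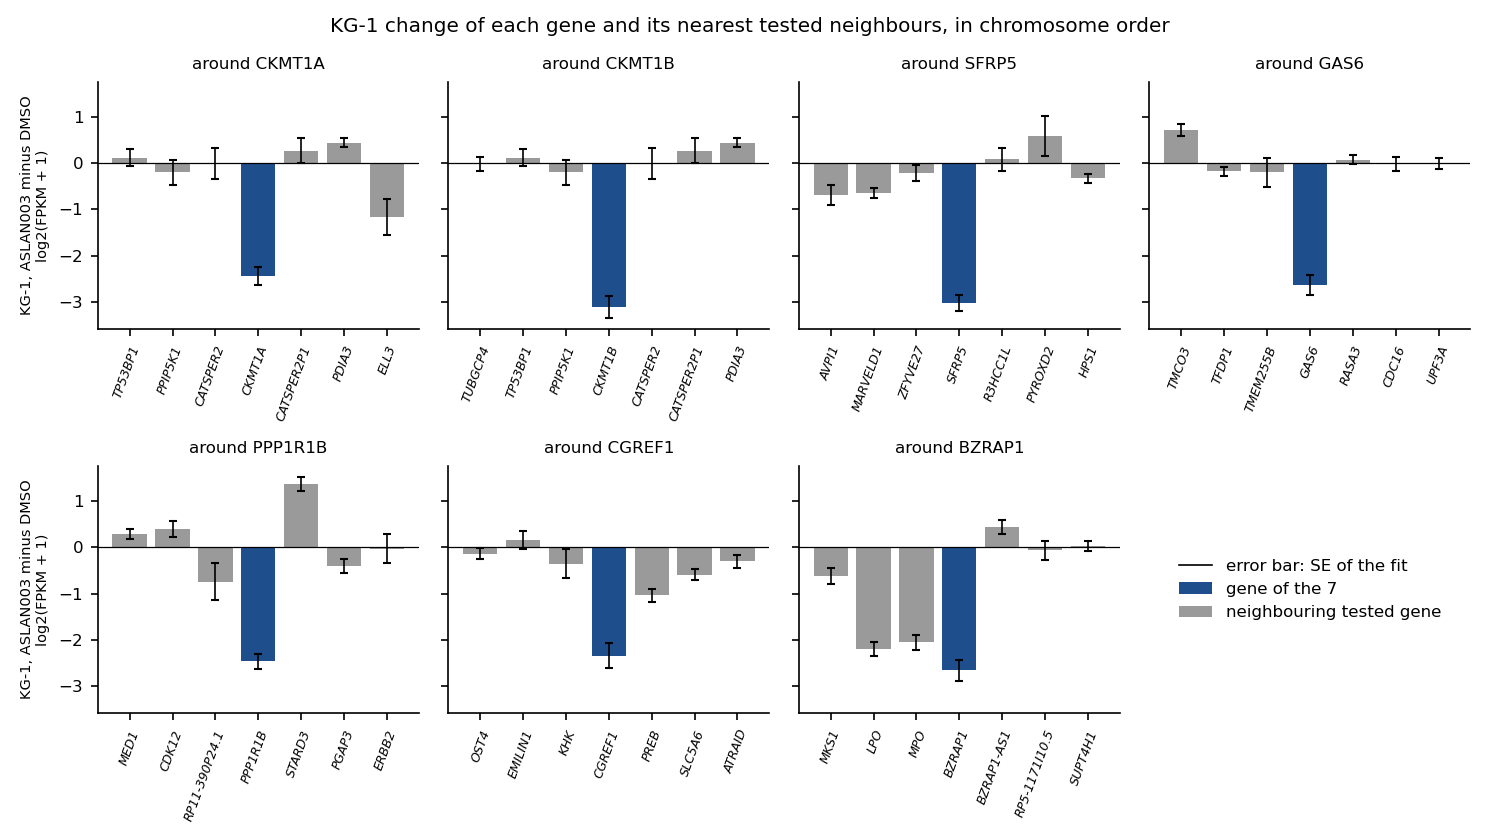
Log2 change in KG-1, on the log2(FPKM + 1) scale, of each of the 7 genes (dark bars) and of its nearest tested neighbours, 3 on either side in chromosome order (grey bars), with the SE of the fit. The dark bars run from -3.11 to -2.34, and the lowest grey bars on this scale are MPO (-2.05) and LPO (-2.20), beside BZRAP1, while STARD3 (1.36), beside PPP1R1B, goes the other way.

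Over all lists of partners, 54 of 98 genes were tested. In KG-1, 14 were called lower, 12 higher and 28 neither, and in MOLM-14, 2 lower, 4 higher and 48 neither. Over all tested genes, 14.3% were called lower and 19.4% higher in KG-1, and 3.33% lower and 9.69% higher in MOLM-14. The lower calls in KG-1 were a larger share than over all genes. Of these 14 calls, 7 were in the list of creatine supply and mitochondrial membranes. The lists were chosen with earlier results known and were not tested as sets, so nothing further is read from the counts. The median log2 change of the 54 was -0.12 in KG-1 and 0.02 in MOLM-14, beside 0.05 and 0.08 over all tested genes. The number lower in KG-1 was 7 without DMSO replicate 1, 8 without DMSO replicate 2, 9 without DMSO replicate 3, 8 without ASLAN003 replicate 1 and 8 without ASLAN003 replicate 2. The number lower in MOLM-14 was 4 without MOLM-14 ASLAN003 replicate 3.

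**Figure D5:**
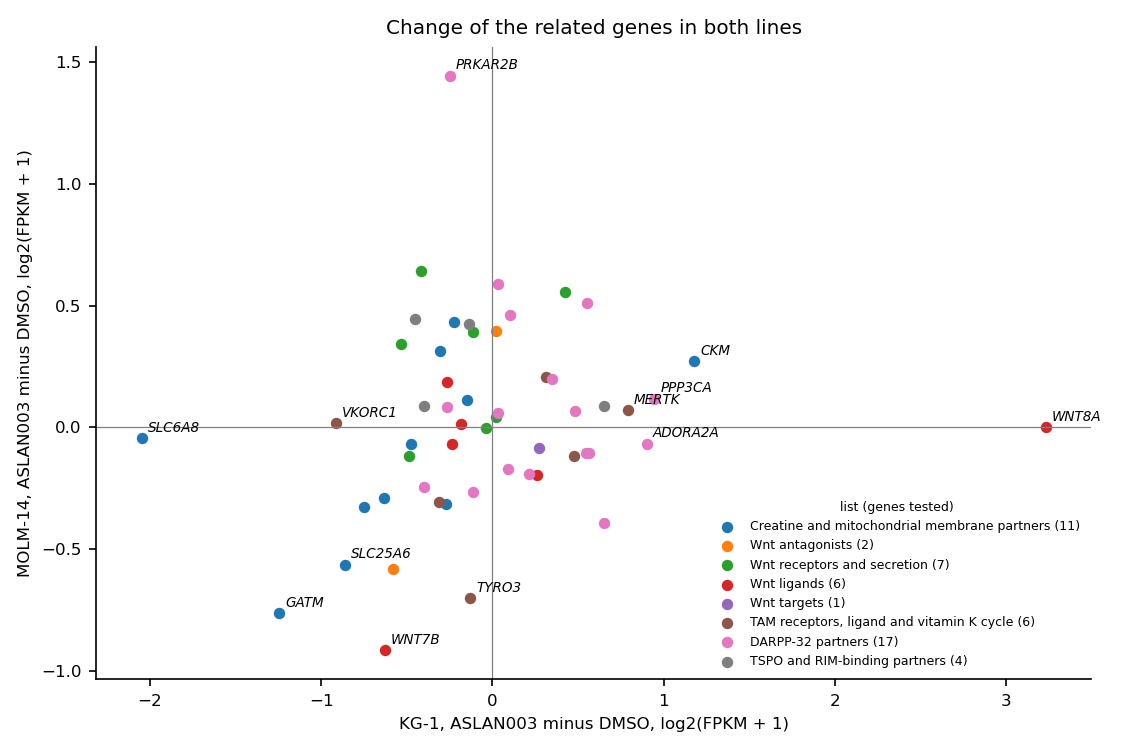
Log2 change in KG-1 (horizontal) and MOLM-14 (vertical), on the log2(FPKM + 1) scale, of the 54 tested partner genes, coloured by list. SLC6A8 lies far to the left (-2.05) and WNT8A far to the right (3.23) at MOLM-14 values near 0, and PRKAR2B (1.44) is high on the vertical axis only.

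The genes whose pattern over the 12 libraries was most like each member are given by Pearson r, a description over points that share groups and libraries. Which genes are nearest depends on the measure: by Spearman's rho, 3 of the 21 were the same. For PPP1R1B they were GSTM1, FBXO17 and C1QTNF4 (each 0.998), all at or next to 0 in MOLM-14. For CKMT1A they were MACROD2 and PALD1 (0.996) and PTPRF (0.994), for CKMT1B COPG2 (0.986), CYP2U1 and DUSP9 (0.983), and for SFRP5 they included NELFE (0.978) and KLRG2 (0.975). For GAS6 they were MRPS25 and ADGRA2 (0.994) and ENDOG (0.992). ADGRA2 had mean levels of 15.8 and 3.46 FPKM in KG-1 and 39.9 and 47.6 in MOLM-14 with DMSO and ASLAN003.

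CGREF1 and BZRAP1 had fewer genes close to their pattern. Their nearest were IMP3 (0.948), TCFL5 (0.942) and AIFM1 (0.940) for CGREF1 and AARS2 (0.959), HES6 and BCKDHB (0.957) for BZRAP1. An r above 0.9 was reached by 24 genes for CGREF1 and 56 for BZRAP1, against 177 for SFRP5, 352 for CKMT1B, 492 for GAS6, 589 for CKMT1A and 891 for PPP1R1B.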

How the data were processed

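A stranded total RNA kit gave 12 libraries, 3 for each of the 4 groups, with paired reads of 100 bases, per the labels' protocols. The submitters' processing notes name RSEM 1.2.25, STAR 2.4.2a, bcl2fastq 2.17.1.14 and the builds hg38 and GRCh38. The sources used here name no annotation. The authors deposited 1 log2 value per gene and library, whose steps show log2(FPKM + 1) of FPKM to the nearest 0.01. FPKM is relative to the whole library, so abundant transcripts can move all others. The table holds no counts. The spacing of low values gave no clear depth (in 6 of 11 libraries the commonest ratio to KG-1 DMSO replicate 1 was 0 to 0.02 on the log2 scale, with no clear peak in the rest), so precision is taken from the spread between libraries. No 2 libraries were duplicates.

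The 7 genes and all lists were chosen with earlier results of these data known. Genes at 1 FPKM or more in at least 3 libraries were tested (13353). With limma 3.58.1 in R 4.3.3, the 4 group means were fitted to log2(FPKM + 1), with a mean trend and robust estimation. Contrasts were ASLAN003 minus DMSO in each line and their difference. All tests were two-sided, p-values were adjusted by Benjamini-Hochberg over all tested genes, and a gene was called at an adjusted p under 0.05. The script was tested on simulated data.

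The genes named are the members, the 3 genes most like each by Pearson r, up to 4 called genes in KG-1 and 2 in MOLM-14 of each partner list, and up to 2 called neighbours per member. CKB, GATM, SLC6A8, TYRO3, MERTK, PROS1, TSPO and PPP1CA are always named. Named beside the rule, after their values were seen, are the nearest neighbours of SFRP5 and GAS6, BZRAP1-AS1, KHK, SFRP1, PPP1CB, PPP1CC and GAL. AXL and AXIN2 were not analysed here. Of the genes most like SFRP5, 1 is not reported here. Positions are from GENCODE 29, in which 13784 (99.3%) of identifiers were found. Coding bases come from its transcripts and start windows from RefSeq (GRCh38.p14), which matched 5 of the 7 genes. No window was matched for PPP1R1B and BZRAP1.

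Alternatives were a pseudocount of 0.1, no filter or one at 5 FPKM, centring of medians, quantile normalization, separate fits of the lines, a fit without trend or robust estimation, weights for libraries by their spread, a block for the replicate number, and the omission of each library in turn.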

Additional observations from a re-analysis of the deposited data

Results flagged for a closer look

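For 12 of 37 named partner or neighbouring genes, the change with ASLAN003 differed between the lines (KG-1 change minus MOLM-14 change, limma adjusted p under 0.05). PPP1CB, PPP1CC, SFRP1 and KHK are not among the 37. Over all tested genes, 9.94% were called for this difference. Most of the 37 were named because they were called in a line, those with the largest changes first. That choice favours a difference between the lines, so the count of 12 is not comparable with this share. Partner genes that are not named were left out of this count, and some of those passed as well. The changes of the members themselves were not tested in this way, since KG-1 values chose them. WNT8A had the largest difference, 3.23 (adjusted p = 9.28e-06), and is listed at 0 in all MOLM-14 libraries. SLC6A8 differed by -2.01 (adjusted p = 0.0323) and LPO by -1.99 (adjusted p = 0.000202), both with the fall in KG-1. PRKAR2B differed by -1.69 (adjusted p = 0.00282), with the rise in MOLM-14.

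Smaller differences were found for PREB (-1.17, adjusted p = 0.00437), STARD3 (1.12, adjusted p = 0.00791) and CDK5R1 (1.05, adjusted p = 0.0343). MARVELD1 differed by -1.0 (adjusted p = 0.00228), VKORC1 by -0.93 (adjusted p = 0.0168), STAR by -0.90 (adjusted p = 0.0228), LRP5 by -0.88 (adjusted p = 0.0308) and DBI by -0.56 (adjusted p = 0.0126). Groups of 3 libraries were too small to look for single outlying values.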

How the results depend on the processing

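Values were recomputed under 21 alternatives, with 17 to 20 for 7 low genes that a stricter filter or a left-out library removed and 1, another measure, for the nearest genes. In the KG-1 description, the median log2 change of the 7 genes stayed between -2.82 and -2.40, their median difference between the lines between -3.06 and -2.54, and the sum of the CKMT1 copies between -3.0 and -2.70. In MOLM-14, the count of members called lower ranged from 0 to 1 and of those called higher from 0 to 1 when 1 library was left out. Same-numbered libraries did not deviate together (correlations of 0.0407, 0.0197 and 0.0318 in KG-1 and 0.10, -0.00191 and 0.0401 in MOLM-14), so the number is not taken as a pairing. With it as a replicate block, 1 member was called lower in MOLM-14, BZRAP1 (-0.50, adjusted p = 0.0351).

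Partner genes called lower in KG-1 ranged from 7 to 16, and in MOLM-14 from 2 to 4, when 1 library was left out. In MOLM-14 the lower calls were 1 with a pseudocount of 0.1 and 8 with medians centred. The higher calls there were 1 with medians centred, 1 with each line fitted alone and 2 with libraries weighted by spread. Centring moved the median change of all genes from 0.05 to -0.07 in KG-1 and from 0.08 to -0.07 in MOLM-14. Neighbours called lower in KG-1 ranged from 5 to 10 when 1 library was left out, and those called higher were 7 with each line fitted alone. Apart from the centring and the left-out libraries, which change the values or number of samples used, the cause was not tested. By Spearman's rho, 3 of the 21 nearest genes were the same. Of the calls of named partners and neighbours other than PPP1CC (31 in KG-1 and 7 in MOLM-14), 21 were kept in every alternative run and 17 were lost in at least 1. CKM (adjusted p = 0.0934), MERTK (0.0886) and, in MOLM-14, WNT7B (0.104) lost theirs with a pseudocount of 0.1. No direction of a called value reversed.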
